A study of Mus musculus with 96 samples.

Results

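Hippocampal messenger RNA of male mice born after maternal immune activation (MIA) was compared between 6 libraries from males given a CSF1R inhibitor (PLX) and 5 libraries from control males without it, which makes 11 of the 96 libraries of the series. The libraries were chosen by their labels alone: tissue hippocampus, treatment MIA, sex male, and either PLX (replicates 1 to 6) or control (replicates 2 to 6). The inhibitor, given by injection to target and renew microglia, is PLX5622 in the description of the series and Plexxikon in the labels, and the controls are labelled as given no such inhibitor. Both groups carried the prenatal exposure, so neither is an unexposed baseline. Strain, age, litter, the agent of immune activation, the dose of the inhibitor and the time between the last injection and tissue collection are not given in the sources used here. For comparison the PLX effect was also taken from hippocampus of saline males (6 PLX and 6 control libraries), hippocampus of MIA females (6 PLX and 7 control) and prefrontal cortex of MIA males (6 PLX and 5 control). Values are a signal, that is, reads per gene divided by a scaling factor for each library. Each library has a label of its own, but nothing says that the animals came from different litters, so p-values measure only the spread between these samples, which may be partly technical.

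Microglia, the resident macrophages of the brain, depend for their survival on the receptor tyrosine kinase CSF1R, which binds the cytokines CSF1 and IL-34. Inhibitors of the kinase deplete microglia, and once the drug is withdrawn the few surviving cells divide and refill the tissue. Renewed microglia regain most of the resting signature, built on genes such as P2ry12, Tmem119 and Cx3cr1. The dentate gyrus, CA3 and CA1 are the relay stations of the hippocampal circuit, with inhibitory interneurons in each. In bulk tissue, fewer cells of a type and less RNA per cell cannot be told apart.

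The 11 libraries held between 23364449 and 25513879 reads, so depth differed little between the groups. What did part the libraries was the share of signal held by genes of ribosomal proteins and of oxidative phosphorylation. In the PLX libraries this share lay between 0.941% and 1.04%. In controls 03, 04 and 06 it was 1.32%, 1.41% and 1.44%, while controls 02 and 05 had 1.01% and 1.03%. Over all 48 hippocampal libraries the widest gap in the ordered shares, between 1.12% and 1.26%, parted 14 libraries from the rest, and these 3 controls were among the 14. In prefrontal cortex the controls numbered 03, 04 and 06 stood apart as well, and none of the 6 PLX libraries did. Each result below is therefore given as designed, with a term in the model for libraries that stand apart, and, where it matters, without them, which leaves 6 PLX against 2 control libraries. The term and the PLX effect are partly confounded here, since no PLX library of MIA males stood apart. The cause of the parting was not tested.

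**Figure D1:**
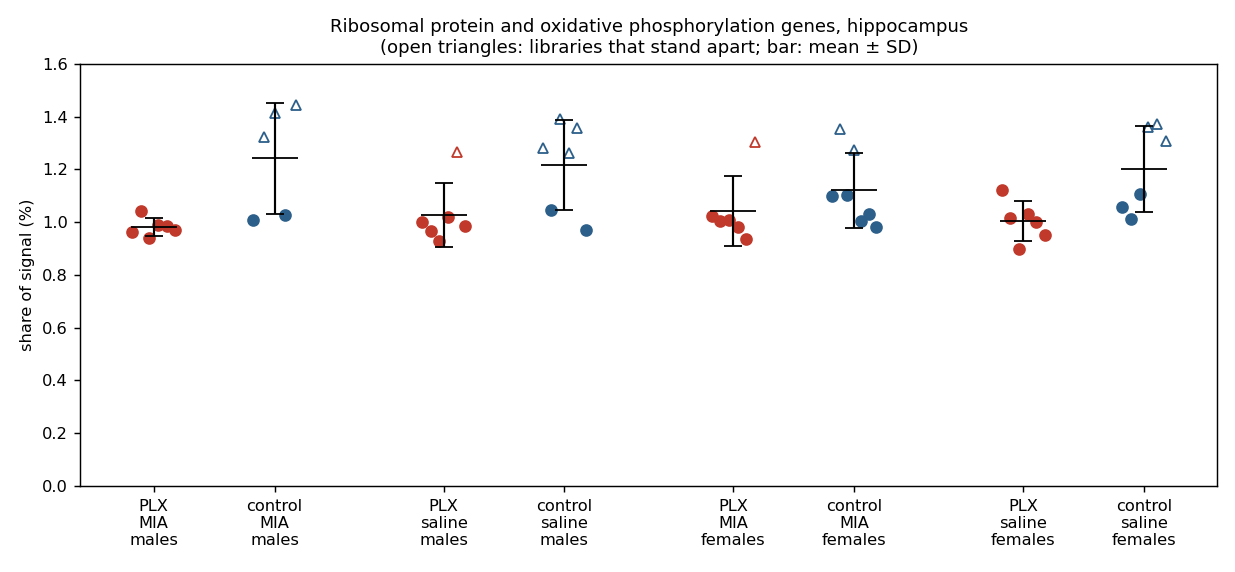
Share of the signal (%, vertical axis) in genes of ribosomal proteins and oxidative phosphorylation in each of the 48 hippocampal libraries, PLX left of control in each pair of groups, with the mean and SD as bars. The 6 PLX libraries of MIA males lie between 0.941% and 1.04%, while 3 of their 5 controls (open triangles) lie between 1.32% and 1.44%.

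Of 18606 genes tested, 1 fell and 0 rose with the inhibitor at an adjusted p under 0.05, which is 0.00537% of the genes (limma, Benjamini-Hochberg adjustment over all genes tested). edgeR on the recovered reads also called 1 gene, and DESeq2 called 3. At an unadjusted p under 0.05, 2962 genes (15.9%) were higher and 2508 genes (13.5%) were lower in PLX libraries. Together these are 29.4% of the genes. With the term the counts were 448 (2.41%) and 393 (2.11%), or 4.52% together. Without the libraries that stand apart they were 288 (1.55%) and 261 (1.4%), or 2.95% together. The large count as designed was thus not kept once the 3 controls were modelled or left out. The term is partly confounded with PLX, and 2 remaining controls give less power, so these fits cannot tell the sources of the drop apart. A list of genes has to be read against 15.9% and 13.5% rather than against the nominal level. In a description that uses the 11 libraries alone, all 6 PLX values lay above all 5 control values in 229 genes (1.23%) and below them in 211 genes (1.13%), 2.36% together. The count of calls depended heavily on controls 02 and 05, the 2 that did not stand apart. Without control 02, 2107 genes (11.3%) were called higher and 1611 (8.66%) lower, 20% together, and without control 05 1679 (9.02%) and 1361 (7.31%), 16.3% together. Weights for library quality, which held both controls at a low weight, called 4700 (25.3%) higher and 4364 (23.5%) lower, 48.7% together.

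The 1 gene that fell was Myo18b, an unconventional myosin that in muscle is needed to assemble sarcomeres. Its signal in PLX libraries ran from 36.0 to 53.5 with a median of 43.4. In control libraries 02 to 06 it was 72.0, 78.7, 62.5, 91.2 and 63.1. Every PLX library was below every control library, and the gap was as wide without the controls that stood apart, which averaged 68.1 where the other 2 averaged 81.6. The mean was 44.0 ± 7.5 in PLX libraries (SD, n = 6) and 73.5 ± 12 in controls (SD, n = 5), a log2 fold change of -0.73 ± 0.13 (SE; adjusted p = 0.0205, limma). The change was -0.75 ± 0.14 with the term (adjusted p = 0.0428) and -0.88 ± 0.19 against the 2 remaining controls, where the adjusted p was 0.882. The call was also lost when only the 11 libraries entered the model (adjusted p = 0.0714) and when control 03 (0.133), PLX 01 (0.0884), PLX 03 (0.144) or PLX 05 (0.132) was left out, while Myo18b kept a log2 fold change between -0.79 and -0.65 in all 11 such omissions. DESeq2 gave Myo18b a p of 4.437e-07, smaller than that of each of the 3 genes it called. It gave Myo18b no adjusted p, so Myo18b could not be called there.

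Among genes of resting microglia, some were lower and most were close to their control level. Of 39 members tested, 2 were higher and 8 were lower at an unadjusted p under 0.05, none passed adjustment, and the median log2 fold change was -0.11, against 0.00 over all genes tested. With the term 3 were higher (7.69%, against 2.41%) and 3 lower (7.69%, against 2.11%). The median was then -0.02, so the shift of the list median was smaller with the term. Summed over the list, the signal was 26100 to 28340 in PLX libraries, 27240 to 29790 in the 3 controls apart and 25890 to 27920 in the other 2 controls.

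The member with the clearest difference was Fcrls, an Fc receptor-like scavenger receptor that marks microglia in mice. Its signal in PLX libraries ran from 331 to 412 with a median of 369. In control libraries 02 to 06 it was 505, 634, 474, 468 and 537. The groups did not overlap, and controls 04 and 05 were the closest to the PLX libraries. The log2 fold change of Fcrls was -0.49 ± 0.11 (adjusted p = 0.0957, limma), -0.35 ± 0.10 with the term and -0.39 ± 0.12 without the libraries that stand apart. DESeq2 called Fcrls (log2 fold change -0.49, adjusted p = 0.0474). Upk1b, a tetraspanin first described in the bladder lining, had 14.3 to 24.2 in PLX libraries (median 18.1) and 27.1, 48.6, 27.0, 24.9 and 31.1 in controls. All 6 PLX libraries were again below the controls, by a narrow margin at 24.2 against 24.9, and the log2 fold change was -0.72 ± 0.20 (adjusted p = 0.0957), or -0.65 ± 0.21 with the term. Crybb1, a lens crystallin that microglia also transcribe, had 27.3 to 61.6 in PLX libraries against 57.8 to 86.5 in controls, with 1 PLX library inside the control range. Its log2 fold change was -0.72 ± 0.19 as designed (adjusted p = 0.0957) and -0.58 with the term.

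The receptors that define resting microglia differed less. P2ry12, the purinergic receptor that steers microglial processes towards ATP, had a signal of 747 to 959 in PLX libraries (median 820) and of 985, 992, 956, 914 and 1031 in controls 02 to 06. Only PLX 06, at 959, reached the control range. The log2 fold change of P2ry12 was -0.22 ± 0.09 (adjusted p = 0.110, limma) and -0.17 ± 0.09 with the term. Tmem119, a surface protein of microglia, had -0.19 ± 0.11 (adjusted p = 0.235) and -0.05 ± 0.10 with the term. Cx3cr1, the receptor for the neuronal chemokine fractalkine, had -0.17 ± 0.09 (adjusted p = 0.219) and the same value with the term. None of these 3 receptors and surface proteins passed the test, and the sign was negative in each of the 3 fits.

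The kinase that the inhibitor binds was measured as a single value fixed by the design. Csf1r had a signal of 2131 to 2400 in PLX libraries (median 2266) and of 2572, 2664, 2239, 2452 and 2323 in controls 02 to 06. The ranges overlapped, with controls 04 and 06 inside the PLX range. The mean of Csf1r was 2260 ± 115 in PLX libraries (SD, n = 6) and 2450 ± 174 in controls (SD, n = 5), a log2 difference of -0.11. The two-sided exact permutation p was 0.0606 over 462 splits, where the smallest p possible, that of 1 split, is 0.002165. Over the omission of each library in turn, the difference in Csf1r ran from -0.15 without control 04 (exact p = 0.0286) to -0.08 without control 03 (exact p = 0.133). The exact permutation p was under 0.05 in 1 other omission, that of PLX 03 (0.0476), and between 0.0524 and 0.124 in the remaining 8. Of its ligands, Csf1 differed by 0.01 ± 0.08 (adjusted p = 0.959, limma) and Il34 by -0.16 ± 0.09 (adjusted p = 0.215), and the sign of both turned in some other fits. Over 26 genes of CSF1 and TGF-beta signalling, 4 were higher (15.4%, against 15.9% over all genes) and 0 lower at an unadjusted p under 0.05. With the term the counts were 0 and 0. These 4 included Smad4, the shared partner of receptor-activated SMADs, and Itgb8, an integrin subunit that releases active TGF-beta.

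The promoters of Fcrls and P2ry12 are shown because these are the best separated and the best known of the microglial receptors in this comparison. Both run from 250 bases before to 50 bases after the annotated start in RefSeq (GRCm38.p6), and capitals mark GAGGAA, the core of the site bound by the myeloid factor PU.1. The Fcrls window is chr3:87263475-87263774 on the minus strand and holds 1 match.
Fcrls: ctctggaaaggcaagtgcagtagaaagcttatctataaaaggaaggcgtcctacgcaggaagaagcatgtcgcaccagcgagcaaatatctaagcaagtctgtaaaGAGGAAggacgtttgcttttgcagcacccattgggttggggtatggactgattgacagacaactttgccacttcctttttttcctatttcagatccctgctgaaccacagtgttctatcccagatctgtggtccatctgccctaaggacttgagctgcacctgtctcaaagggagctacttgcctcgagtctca
The P2ry12 window is chr3:59262936-59263235 on the minus strand and holds 0 matches on either strand.
P2ry12: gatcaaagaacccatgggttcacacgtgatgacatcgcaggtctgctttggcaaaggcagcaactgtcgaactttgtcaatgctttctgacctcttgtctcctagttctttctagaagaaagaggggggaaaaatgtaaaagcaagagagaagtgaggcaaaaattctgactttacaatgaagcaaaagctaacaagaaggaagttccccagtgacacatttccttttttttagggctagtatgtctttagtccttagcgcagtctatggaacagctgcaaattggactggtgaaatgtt
Of 32851 promoters of the same length, 28.3% hold GAGGAA on at least 1 strand, so a match is common and describes the letters only.

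Border macrophages, which line vessels and meninges, were represented by 9 tested genes. Of these, 0 were higher and 1 was lower at an unadjusted p under 0.05, the lower one being Cd163, the scavenger receptor for haemoglobin bound to haptoglobin. Cd163 had 14.7 to 28.6 in PLX libraries (median 20.8) and 84.5, 73.9, 20.51, 38.4 and 41.2 in controls 02 to 06. Control 04 lay inside the PLX range and the other 4 controls above it. The log2 fold change of Cd163 was -1.10 ± 0.32 (adjusted p = 0.0957, limma), -1.33 ± 0.33 with the term and -1.41 ± 0.39 without the libraries that stand apart. Mrc1, the mannose receptor of the same cells, had 42.0 to 139 in PLX libraries against 69.9 to 144 in controls, and Lyve1, a hyaluronan receptor, had 10.8 to 22.8 in PLX libraries against 8.39 to 23.8 in controls. Cd209a, a lectin of macrophages and dendritic cells, was below the filter at 0 to 8.17 in PLX libraries against 3.11 to 9.72 in controls.

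**Figure D2:**
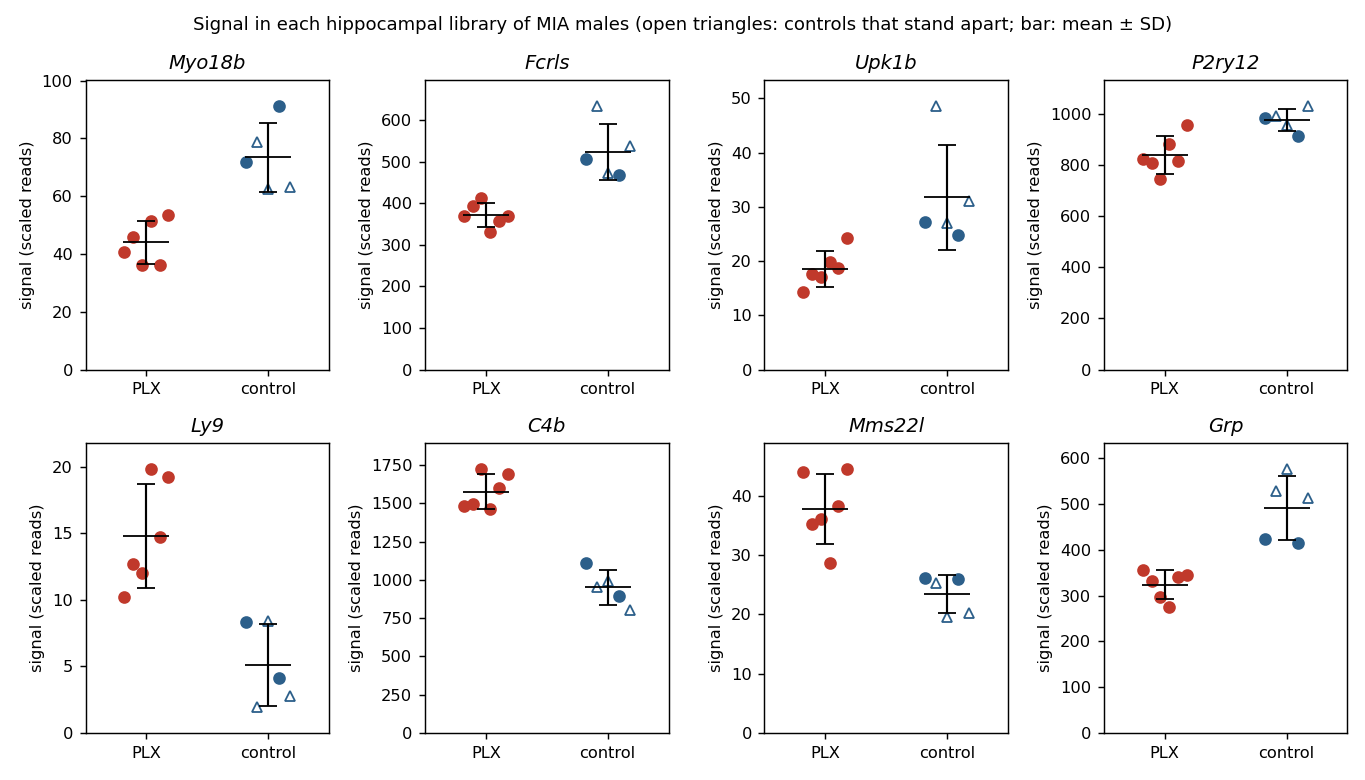
Signal (reads divided by the library's factor, vertical axis from 0) of 8 genes in each hippocampal library of MIA males, PLX left and control right, with the mean and SD as bars and open triangles for the 3 controls that stand apart. For Myo18b, Fcrls, Upk1b and Grp all PLX points lie below all control points, for Ly9, C4b and Mms22l all lie above, and for P2ry12 1 PLX point reaches the control range.

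Of the immune genes named next, none passed adjustment in the fit of all hippocampal libraries. C4b passed it with the 11 libraries alone, and Tnfsf8 with no filter on low values. Others passed in the fits that called 16.3% and 48.7% of all genes. Without control 05 Alox5 did (adjusted p = 0.0339, limma), and with library quality weights Cd52 did (adjusted p = 0.012, limma). Ly9, a SLAM family receptor found on blood cells, had 10.2 to 19.8 in PLX libraries (median 13.7) and 8.35, 1.94, 8.39, 4.15 and 2.75 in controls 02 to 06. The groups did not overlap. The log2 fold change of Ly9 was 1.49 ± 0.33 (adjusted p = 0.0957, limma), 1.5 ± 0.35 with the term and 1.15 ± 0.43 against the 2 remaining controls. Signals near 10 correspond to about as many reads, so counting error is a large part of the spread of Ly9. Every control was under 10, so Ly9 passed the filter only through its PLX libraries, which favours a higher value in PLX.

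C4b, a complement component that deposits on synapses and is made by astrocytes among other cells, stood at a far higher level. It had 1463 to 1722 in PLX libraries (median 1548) and 1111, 953, 994, 894 and 801 in controls 02 to 06. The lowest PLX library was well above the highest control. The mean of C4b was 1577 ± 114 in PLX libraries (SD, n = 6) and 951 ± 116 in controls (SD, n = 5), a 1.66-fold difference on the scale of log2(signal + 1), with a log2 fold change of 0.73 ± 0.19 (adjusted p = 0.0957, limma), 0.71 ± 0.20 with the term and 0.66 ± 0.24 without those that stand apart. When only the 11 libraries entered the model C4b was the 1 gene called, at 0.73 ± 0.08 (adjusted p = 0.00549). Its near-identical neighbour C4a can share reads with it, so the split between them is uncertain: C4a had 62.6 to 97.0 in PLX libraries against 47.6 to 78.7 in controls, a log2 fold change of 0.39 ± 0.23. C5ar1, the receptor for the complement fragment C5a on myeloid cells, had 20.4 to 31.0 in PLX libraries (median 26.1) and 18.8, 20.4, 13.1, 13.5 and 11 in controls, a difference of 0.73 ± 0.20 (adjusted p = 0.0957) or 0.76 with the term. For C5ar1 the lowest PLX library (20.42) and the highest control (20.40) were almost level. Of 19 complement genes tested, these 2 were higher and 0 lower at an unadjusted p under 0.05. Both shares were smaller than those over all genes, 15.9% higher and 13.5% lower. With the term 4 were higher (21.1%, against 2.41% over all genes) and 0 lower.

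Among 22 tested genes of activated microglia, 5 were higher (22.7%, against 15.9% over all genes) and 4 lower (18.2%, against 13.5%) at an unadjusted p under 0.05. With the term 5 were higher (22.7%, against 2.41%) and 0 lower. Ly9 is among the 5 higher members in both fits. It passed the filter only through its PLX libraries, which favours a higher value in PLX. The list median was 0.03 as designed, 0.06 with the term and 0.16 without the libraries that stand apart. Cd52, a small surface glycoprotein of leukocytes, had 14.1 to 29.0 in PLX libraries (median 20.6) and 7.31, 9.72, 15.9, 8.29 and 11 in controls 02 to 06, so only control 04 reached the PLX range. Its log2 fold change was 0.92 ± 0.30 as designed (adjusted p = 0.0957, limma) and 1.21 ± 0.29 with the term. Lyz2, the lysozyme of myeloid cells, had 123 to 241 in PLX libraries against 88.6 to 164 in controls (0.50 ± 0.23, adjusted p = 0.141). The most abundant members, the lipid carrier Apoe (-0.27 ± 0.12) and the lysosomal proteases Ctsb (-0.17 ± 0.07) and Ctsd (-0.19 ± 0.13), were lower as designed and within 0.11 of no change with the term.

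Some genes of the same kind were too weak to be tested. Hcar2, a receptor for niacin and ketone bodies on myeloid cells, had 2.003 to 12.8 in PLX libraries (median 7.60) and 1.04, 2.92, 0.933, 0 and 0 in controls 02 to 06. Itgax, the integrin subunit CD11c, had 5.87 to 13.02 in PLX libraries against 1.87 to 5.18 in controls, without overlap. Tnfsf8, the ligand of CD30, had 2.93 to 8.01 in PLX libraries and 1.04, 0, 0, 1.04 and 0 in controls 02 to 06, and was called only when the filter on low values was dropped (log2 fold change 2.43 ± 0.46, adjusted p = 0.0362, limma). Alox5, the lipoxygenase that starts leukotriene synthesis, passed the filter with 17.6 to 25.7 in PLX libraries and 3.13, 14.6, 10.3, 16.6 and 12.8 in controls 02 to 06. All PLX libraries were above all controls for Alox5, with a log2 fold change of 0.90 ± 0.25 (adjusted p = 0.0957), which was 0.54 ± 0.21 without control 02, the lowest library. Traf3ip3, a partner of the signalling adaptor TRAF3, ran the other way, with 9.01 to 20.8 in PLX libraries against 16.7 to 28.0 in controls (-0.86 ± 0.22, adjusted p = 0.0957).

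In other immune lists the shares at an unadjusted p under 0.05 lay on either side of those over all genes (15.9% higher and 13.5% lower). Of 28 interferon response genes, 1 was higher (3.57%; Stat2, 0.19 ± 0.09) and 0 lower, with a median of 0.14. Of 21 MHC genes, 4.76% were higher and as many lower: 1 was higher (Ciita, the class II transactivator, 0.70 ± 0.32) and 1 lower (Psmb8, an immunoproteasome subunit, -0.36 ± 0.16), and neither passed an unadjusted p of 0.05 with the term. Of 18 Fc gamma and Toll-like receptor genes, 3 were higher (16.7%) and 0 lower, and for the adaptor Tirap all 6 PLX libraries lay above the controls (72.2 to 89.3 against 55.4 to 71.8). Of 18 cytokines and receptors, 3 were higher (16.7%) and 4 lower (22.2%), and with the term 1 and 0. Markers of other leukocytes were at or near the detection limit: Cd79a of B cells had 0.982 to 7.01 in PLX libraries against 0 to 5.60 in controls, and Ccr2 of monocytes had 1.96 to 10.1 in PLX libraries against 2.07 to 6.26 in controls. Ptprc, the pan-leukocyte phosphatase that microglia also express, was the 1 member of that list tested, at 0.41 ± 0.17 (adjusted p = 0.115).

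Mms22l, which with its partner TONSL helps repair stalled replication forks, had the smallest adjusted p of the genes that missed the threshold. Its signal was 28.7 to 44.4 in PLX libraries (median 37.2) and 26.1, 25.3, 19.6, 25.9 and 20.1 in controls 02 to 06. No PLX library of Mms22l reached down to a control. The log2 fold change was 0.66 ± 0.13 (adjusted p = 0.0809, limma), 0.58 ± 0.14 with the term and 0.51 ± 0.19 without the libraries that stand apart. Hus1, a subunit of the checkpoint clamp loaded at DNA damage, also had all PLX libraries above the controls, at 436 to 549 against 353 to 433, with 0.33 ± 0.08 (adjusted p = 0.0957) and 0.20 ± 0.07 with the term. In the list of 30 cell cycle and replication genes, 2 were higher and 2 lower at an unadjusted p under 0.05, and the median was -0.05. These counts are 6.67% each, against 15.9% and 13.5% over all genes. The proliferating cell nuclear antigen Pcna was lower as designed (-0.27 ± 0.11) and its PLX level of 416 ± 26.8 (SD, n = 6) lay near the mean of 414 in the 2 controls that did not stand apart.

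The other genes with the smallest p-values in the upward direction came from varied families. St8sia6, a sialyltransferase, had 235 to 307 in PLX libraries (median 257) and 217, 141, 117, 215 and 154 in controls 02 to 06. Controls 02 and 05, which did not stand apart, were the nearest to the PLX libraries, and the log2 fold change of St8sia6 was 0.67 ± 0.15 as designed (adjusted p = 0.0957, limma), 0.41 ± 0.11 with the term and 0.27 ± 0.15 without the libraries that stand apart. Cmya5, a large partner protein of the muscle sarcomere, and Zhx3, a zinc finger homeobox repressor, shrank in the same way, to 0.16 and 0.17 without those libraries against 0.51 and 0.39 as designed. Tmem82, at 10.01 to 19.6 in PLX libraries against 3.13 to 9.33 in controls, was nearly the same in all 3 fits (1.27, 1.27 and 1.24). Every control of Tmem82 was under 10, so it passed the filter only through its PLX libraries, which favours a higher value in PLX. Ky, a transglutaminase-like protein required for muscle growth, had 0.58 ± 0.14 as designed and 0.49 with the term. Washc2, a subunit of the WASH complex that sorts endosomal cargo, had 0.20 ± 0.05 and 0.16 with the term.

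In the downward direction, after Myo18b, the smallest p-value belonged to Grp, which encodes gastrin-releasing peptide, a neuropeptide of hippocampal and amygdalar neurons. Grp had 275 to 355 in PLX libraries (median 336) and 423, 528, 575, 415 and 513 in controls 02 to 06. The groups did not overlap, and the 3 controls that stood apart were the highest. Its log2 fold change was -0.59 ± 0.13 (adjusted p = 0.0957, limma), -0.44 ± 0.12 with the term and -0.37 ± 0.15 without those libraries. DESeq2 called Grp (adjusted p = 0.0318) and also Rnd1 (0.0474), a small GTPase that acts on the actin skeleton. Rnd1 had 138 to 190 in PLX libraries against 186 to 291 in controls, with -0.62 ± 0.14 in limma (adjusted p = 0.0957) and -0.47 ± 0.13 with the term.

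Tspan9, a tetraspanin, had 1053 to 1215 in PLX libraries against 1348 to 1477 in controls, without overlap, and a small but steady difference of -0.29 ± 0.07 as designed (adjusted p = 0.0957), -0.24 with the term and -0.24 without the libraries that stand apart. Cspg5, the brain proteoglycan neuroglycan C, had 4314 to 5172 in PLX libraries against 5169 to 6380 in controls (-0.35 ± 0.08, and -0.23 with the term), so the highest PLX library just passed the lowest control. Cadm4, an adhesion molecule of myelinating glia and synapses, went to -0.14 without the libraries that stand apart, against -0.33 as designed. Resp18, a protein of secretory granules, went to -0.20 against -0.51, Smco4 to -0.43 against -0.74, and Mrpl27-ps, a pseudogene of a mitochondrial ribosomal protein that can take reads from its parent gene, to -0.30 against -0.51.

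Genes of ribosomal proteins and oxidative phosphorylation, the lists that define which libraries stand apart, were lower in PLX libraries almost throughout. Of 82 ribosomal protein genes, 0 were higher and 41 lower at an unadjusted p under 0.05, with a median log2 fold change of -0.29. Of 77 respiratory genes, 0 were higher and 64 lower, with a median of -0.31. With the term, 4 and 5 members were lower and the medians were -0.07 and -0.08, and once libraries that stand apart were left out the medians were -0.02 and -0.03. Rps3, a protein of the small ribosomal subunit, averaged 4777 ± 184 in PLX libraries (SD, n = 6), 7078 in the 3 controls apart and 4838 in the other 2 controls. Ndufb7 of respiratory complex I averaged 892 in PLX libraries, 1370 in the controls apart and 989 in the other 2. None of these genes passed adjustment, and since these genes define which libraries stand apart, their smaller differences with the term or without those libraries follow from that definition.

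**Figure D3:**
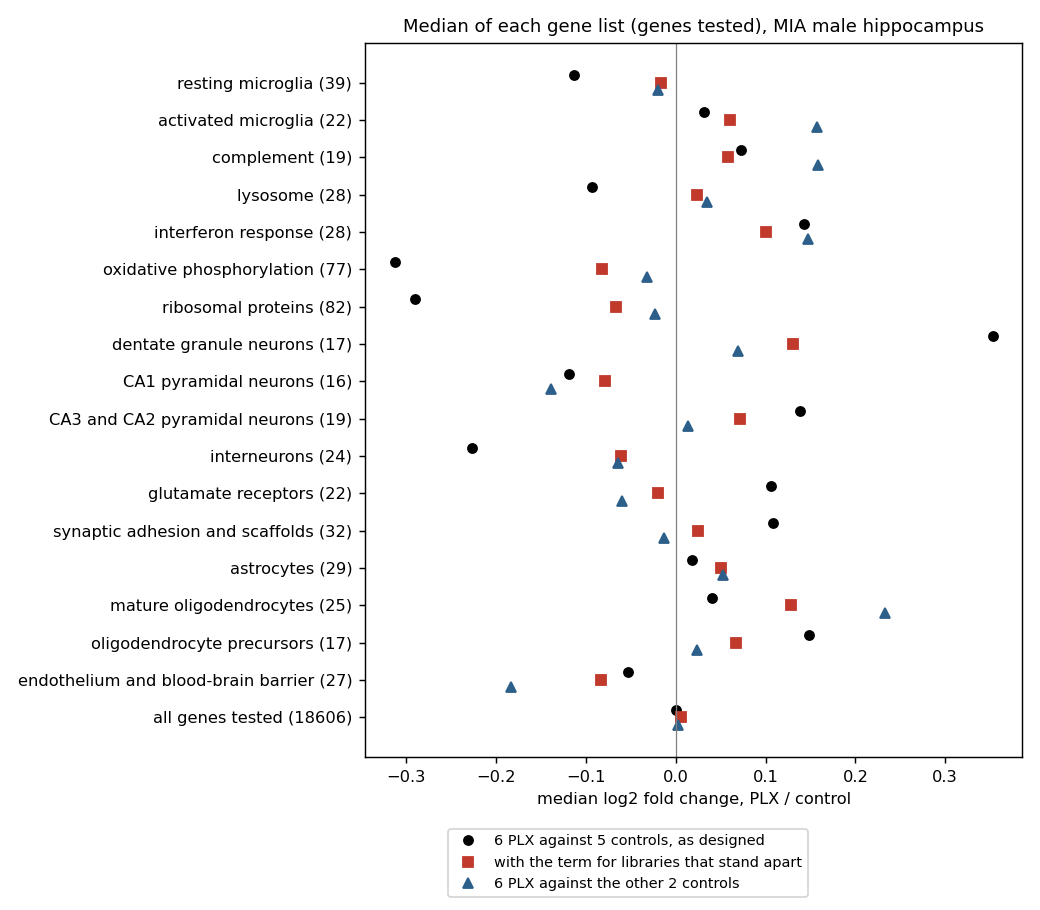
Median log2 fold change (PLX over control, horizontal axis) of 17 gene lists and of all genes tested, as designed, with the term and without the libraries that stand apart, with the number of genes tested in brackets. Ribosomal proteins and oxidative phosphorylation move to -0.02 and -0.03 without those libraries against -0.29 and -0.31 as designed, and dentate granule neurons to 0.07 against 0.35.

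Transcript length moved with the same libraries. Over 18426 genes with an annotated transcript, the Spearman correlation across genes between length and log2 fold change was 0.417 as designed, 0.136 with the term and 0.0461 without the libraries that stand apart. Genes are not independent replicates and share the 11 libraries, so this is a description. Genes higher at an unadjusted p under 0.05 had a median length of 5187 bases and a median GC content of 46.7%, and lower genes 1660 bases and 53.3%, against 2830 bases and 49.7% over all. In the longest of 10 equal bins of length the median log2 fold change was 0.26 as designed and 0.02 without those libraries, and in the shortest it was -0.15 and 0.00. The part of length in the results on single genes and lists was not tested. The same correlation was 0.390 in saline males, where 1 of 6 PLX and 4 of 6 control libraries stood apart, and 0.196 in MIA females, where 1 of 6 PLX and 2 of 7 control libraries did.

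**Figure D4:**
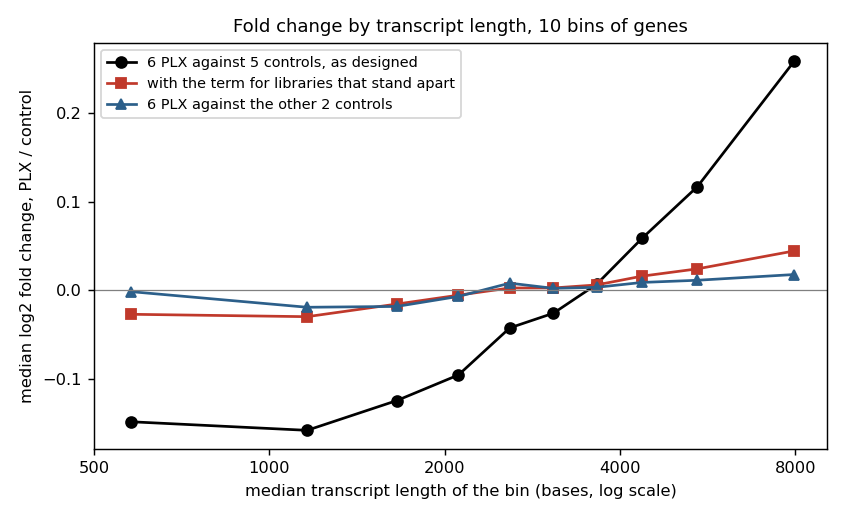
Median log2 fold change (PLX over control, vertical axis) in 10 bins of genes ordered by transcript length (bases, log scale), as designed, with the term and without the libraries that stand apart. As designed the line climbs to 0.26 in the longest bin, with -0.15 in the shortest, and without those libraries it stays between -0.02 and 0.02.

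Neuronal genes are given by region, with no test of one region against another. Of 17 dentate granule neuron genes, 11 were higher (64.7%, against 15.9% over all genes) and 0 lower at an unadjusted p under 0.05, with a median of 0.35. With the term the counts were 1 and 0 and the median was 0.13, and without the libraries that stand apart it was 0.07. Prox1, the transcription factor that holds granule cell identity, averaged 3839 ± 362 in PLX libraries (SD, n = 6), 2373 in the controls apart and 3778 in the other 2. Dock10, an exchange factor for small GTPases, was the 1 member without overlap, at 3473 to 4040 in PLX libraries and 3436, 2789, 2081, 3186 and 1957 in controls 02 to 06 (0.49 ± 0.15, adjusted p = 0.0957, limma). Its term estimate was 0.21. The granule cell markers C1ql2 (-0.07 ± 0.16) and Calb1 (-0.02 ± 0.11) were near no change as designed.

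Of 16 CA1 pyramidal neuron genes tested, 0 were higher and 3 lower (18.8%, against 13.5% over all genes), with a median of -0.12 as designed, -0.08 with the term and -0.14 without the libraries that stand apart. Mpped1, a metallophosphoesterase-domain protein, had 4870 to 5780 in PLX libraries (median 5141) and 6130, 6561, 6489, 5917 and 6061 in controls 02 to 06. The groups did not overlap, and the log2 fold change of Mpped1 was -0.26 ± 0.08 (adjusted p = 0.0957, limma) or -0.20 with the term. Ccn3, a secreted matricellular protein, had -0.42 ± 0.13 and -0.32 with the term. Summed over the list, the signal was 61790 to 67100 in PLX libraries and 68460 to 70960 in all 5 controls, a separation that held for both kinds of control. Of 19 CA3 and CA2 genes, 5 were higher (26.3%, against 15.9% over all genes) and 0 lower. With the term 3 were higher (15.8%, against 2.41%) and 0 lower. St18, a zinc finger transcription factor, and Nectin3, a synaptic adhesion molecule, had all PLX libraries above the controls (0.43 ± 0.13 and 0.32 ± 0.11; 0.19 and 0.12 with the term).

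Of 24 interneuron genes tested, 3 were higher (12.5%, against 15.9% over all genes) and 8 lower (33.3%, against 13.5%) as designed, with a median of -0.23. With the term 0 were higher and 3 lower (12.5%, against 2.11%), with a median of -0.06. Slc32a1, the vesicular transporter for GABA, had 918 to 1035 in PLX libraries (median 984) and 1154, 1155, 1236, 1218 and 1257 in controls 02 to 06. Lhx6, a transcription factor of interneurons born in the medial ganglionic eminence, had 422 to 479 in PLX libraries (median 441) and 532, 517, 534, 557 and 507 in controls. In both genes the groups were well parted and all 5 controls lay close together, whether or not they stood apart. The log2 fold changes were -0.29 ± 0.08 for Slc32a1 and -0.25 ± 0.07 for Lhx6 (both adjusted p = 0.0957, limma), -0.22 for both with the term, and -0.27 and -0.29 once libraries that stand apart were left out. Sst, the neuropeptide somatostatin, had 2302 to 3400 in PLX libraries against 2954 to 3973 in controls (-0.47 ± 0.16, adjusted p = 0.0957, and -0.32 with the term). Pvalb, the calcium buffer of fast-spiking cells, had -0.46 ± 0.18 as designed and -0.09 with the term, and Gad1, a GABA-synthesising enzyme, had -0.11 ± 0.05 and -0.09. The 3 members higher at an unadjusted p under 0.05 were Reln, a secreted matrix glycoprotein (0.30 ± 0.15), Adarb2, an RNA-binding protein of the editing enzyme family (0.32 ± 0.14), and Nos1, the neuronal nitric oxide synthase (0.30 ± 0.15). Gad2, the other GABA-synthesising enzyme, had 4596 to 5051 in PLX libraries against 3977 to 5322 in controls, with 0.14 ± 0.09 as designed (adjusted p = 0.279) and -0.01 with the term.

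Synaptic genes followed the controls apart. Of 32 genes of synaptic adhesion and scaffolds, 12 were higher (37.5%, against 15.9% over all genes) and 1 lower (3.12%, against 13.5%) as designed. With the term 1 was higher (3.12%, against 2.41%) and 0 lower. Of 22 glutamate receptor genes, 5 were higher (22.7%) and 1 lower (4.55%) as designed. With the term 0 were higher and 2 lower (9.09%, against 2.11%). Grin2b, a subunit of the NMDA receptor, averaged 24360 in PLX libraries, 12730 in the controls apart and 24840 in the other 2 (0.55 ± 0.22 as designed and -0.04 without the libraries that stand apart). Of 13 GABA-A receptor subunits, 3 were higher (23.1%) and 1 lower (7.69%). The lower subunit, Gabra3, had all PLX libraries below the controls at 1600 to 1854 against 1865 to 2099 (-0.20 ± 0.08, and -0.22 with the term). Of 20 genes of perineuronal nets and matrix, 6 were higher (30%) and 1 lower (5%), and with the term 0 and 1 (5%). Immediate early genes, 36 tested, had 1 higher (2.78%) and 2 lower (5.56%). Among 22 genes of adult neurogenesis, 1 was higher (4.55%) and 3 lower (13.6%). Tubb3, a tubulin of neurons, had all PLX libraries below the controls (4274 to 5119 against 5400 to 6687, -0.34 ± 0.10, and -0.19 with the term).

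Of 29 astrocyte genes, 2 were higher (6.9%, against 15.9% over all genes) and 3 lower (10.3%, against 13.5%), with C4b among the 2. The amino acid transporter Slc7a10 had all PLX libraries below the controls (565 to 623 against 644 to 943, -0.36 ± 0.12, and -0.21 with the term). Of 25 genes of mature oligodendrocytes, 3 were higher (12%) and 0 lower, and with the term 0 and 0. The myelin gene Mbp (0.06 ± 0.14) varied within both groups by more than it differed between them. Of 17 genes of oligodendrocyte precursors, 5 were higher (29.4%) and 0 lower, and 0 and 0 with the term.

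Vascular lists differed from all genes most against the 2 controls that did not stand apart. Of 27 endothelial genes, 0 were higher and 4 lower as designed (14.8%, against 13.5% over all genes). With the term 0 were higher and 2 lower (7.41%, against 2.11%), and against the 2 remaining controls 0 and 7 (25.9%, against 1.4%). The list median was -0.05, -0.08 and -0.18 in these 3 fits. Among the 7 were Cdh5, the cadherin of endothelial junctions (-0.44 ± 0.17), Flt1, a receptor for VEGF (-0.45 ± 0.14), and Tek, the angiopoietin receptor (-0.44 ± 0.16). Cldn5, the tight junction claudin of the blood-brain barrier, had 224 to 452 in PLX libraries (median 268) and 360, 557, 407, 628 and 444 in controls 02 to 06. PLX 02 lay among the controls and the other 5 PLX libraries below them, with a log2 fold change of -0.70 ± 0.20 (adjusted p = 0.0957, limma), -0.55 with the term and -0.72 without the libraries that stand apart. Pecam1, a pan-endothelial adhesion molecule, had 329 to 418 in PLX libraries against 362 to 457 in controls. Of 25 genes of pericytes, smooth muscle and meningeal fibroblasts, 2 were higher (8%) and 3 lower (12%) as designed, and 0 and 0 with the term. Against the 2 remaining controls 0 were higher and 4 lower (16%). The medians of that list were -0.08, -0.20 and -0.29 in these 3 fits. In that last fit 22 of the 25 had a negative sign, and Pdgfrb, the growth factor receptor of pericytes, had -0.37 ± 0.13. None of the vascular genes passed adjustment in these fits.

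Lists of metabolism and stress fell on both sides of the shares over all genes. Those shares were 15.9% higher and 13.5% lower as designed, and 2.41% and 2.11% with the term. Of 19 glucocorticoid-responsive genes, 5 were higher (26.3%) and 0 lower, and with the term 2 and 0. Klf9, a Krüppel-like factor induced by glucocorticoids, had 0.19 ± 0.07 as designed and 0.17 with the term, and Zbtb16 had 0.62 ± 0.19 and 0.25. Of 25 genes of cholesterol synthesis, 0 were higher and 7 lower (28%), and 0 and 0 with the term. Of 28 lysosomal genes, 2 were higher (7.14%) and 6 lower (21.4%), and 1 and 1 with the term (3.57% each). Of 27 genes of the unfolded protein response, 2 were higher (7.41%) and 1 lower (3.7%). Of 20 heat shock genes the counts were 1 and 1 (5% each), and of 22 clock genes 3 (13.6%) and 2 (9.09%). Of 18 histone genes, 1 was higher (5.56%) and 4 lower (22.2%), the higher being H4c14 (1.1 ± 0.30, and 0.57 with the term). With the term 3 histone genes were higher (16.7%) and 1 lower (5.56%), and the list median was 0.08, against -0.11 as designed. Among 17 nuclear-retained noncoding RNAs, 2 were higher (11.8%), Snhg14 (0.57 ± 0.22) and Malat1 (0.38 ± 0.18), and neither passed an unadjusted p of 0.05 with the term.

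Markers of neighbouring tissue varied between libraries. Summed over 20 genes of choroid plexus and ependyma, the signal ran from 5421 to 40020 in PLX libraries and from 3944 to 92920 in controls. The median of the list turned with the choice of libraries: it was -0.13 as designed (8 of 20 positive), 0.23 with the term (18 positive) and 1.30 without the libraries that stand apart (all 20 positive), with no member under an unadjusted p of 0.05 in any of the 3. Ttr, the thyroxine carrier made by choroid plexus, stood at 29800 and 22960 in PLX 02 and PLX 05 and at 78280 and 74560 in controls 04 and 06, both of which stand apart, and between 223 and 1328 in the other 7 libraries. The PLX effect on Ttr was -0.26 ± 1.64. Chrnb4, a nicotinic receptor subunit abundant in the habenula, had 2.04 to 137 in PLX libraries against 4.86 to 19.2 in controls. The striatal marker Drd1 had 60.1 to 143 in PLX libraries against 91.8 to 139 in controls. The cortical marker Cux2 had 559 to 896 in PLX libraries against 679 to 850 in controls, and 1885 to 2880 in cortex of MIA males. Fezf2, chosen as another cortical marker, had 659 to 1116 in PLX libraries against 915 to 1071 in controls. With 446 to 888 in cortex of MIA males it was no higher there, so Fezf2 does not mark cortical tissue here. The part of such tissue in the differences above was not tested. The chosen markers of dentate granule, CA1 and CA3 neurons were present in all 11 libraries. Prox1 stood at 1849 or more throughout, against 254 to 423 in cortex of the same groups, and Dsp, a desmosomal plaque protein of granule cells, at 942 or more against 7.72 to 37.2. Of the CA1 and CA3 markers, Fibcd1, Pou3f1 and Grik4 were also higher than in cortex. Wfs1 and Bok overlapped cortex, and Coch was lower (94.8 to 182 in PLX libraries against 620 to 819 in cortex). The presence of those last markers does not identify CA1 or CA3 tissue.

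The same effect can be set beside those in saline males, MIA females and cortex, which use other libraries. Myo18b had -0.73 ± 0.13 in MIA males, -0.66 ± 0.12 in saline males, -0.68 ± 0.12 in MIA females (adjusted p = 0.0205, 0.0272 and 0.0161, limma) and -0.43 ± 0.12 in cortex of MIA males (adjusted p = 0.110). Fcrls had -0.49 ± 0.11, -0.47 ± 0.10 and -0.38 ± 0.10 in the 3 hippocampal comparisons and -0.56 ± 0.11 in cortex, where it was called (adjusted p = 0.0052). Upk1b had -0.72 ± 0.20, -0.99 ± 0.19, -0.70 ± 0.19 and, in cortex, -1.67 ± 0.25. Ly9 had 1.49 ± 0.33, 1.33 ± 0.31, 1.42 ± 0.30 and, in cortex, 1.86 ± 0.34. Cd163 had -1.10 ± 0.32, -1.57 ± 0.31, -1.27 ± 0.30 and, in cortex, -0.34 ± 0.27. C4b had 0.73 ± 0.19, 0.22 ± 0.18, 0.51 ± 0.17 and, in cortex, 0.56 ± 0.17. Grp had -0.59 ± 0.13 in MIA males and -0.22 ± 0.12, -0.11 ± 0.12 and -0.04 ± 0.18 in the other 3. No gene, Grp included, was called for a difference from any of the other 3. Of 30 tested genes that earlier results on other inhibitor comparisons of these data had called, 9 were higher and 9 lower here at an unadjusted p under 0.05. That is 30% each, against 15.9% and 13.5% over all genes. With the term the counts were 11 and 6 (36.7% and 20%, against 2.41% and 2.11%). That list was chosen on the same series and is not independent evidence of direction.

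**Figure D5:**
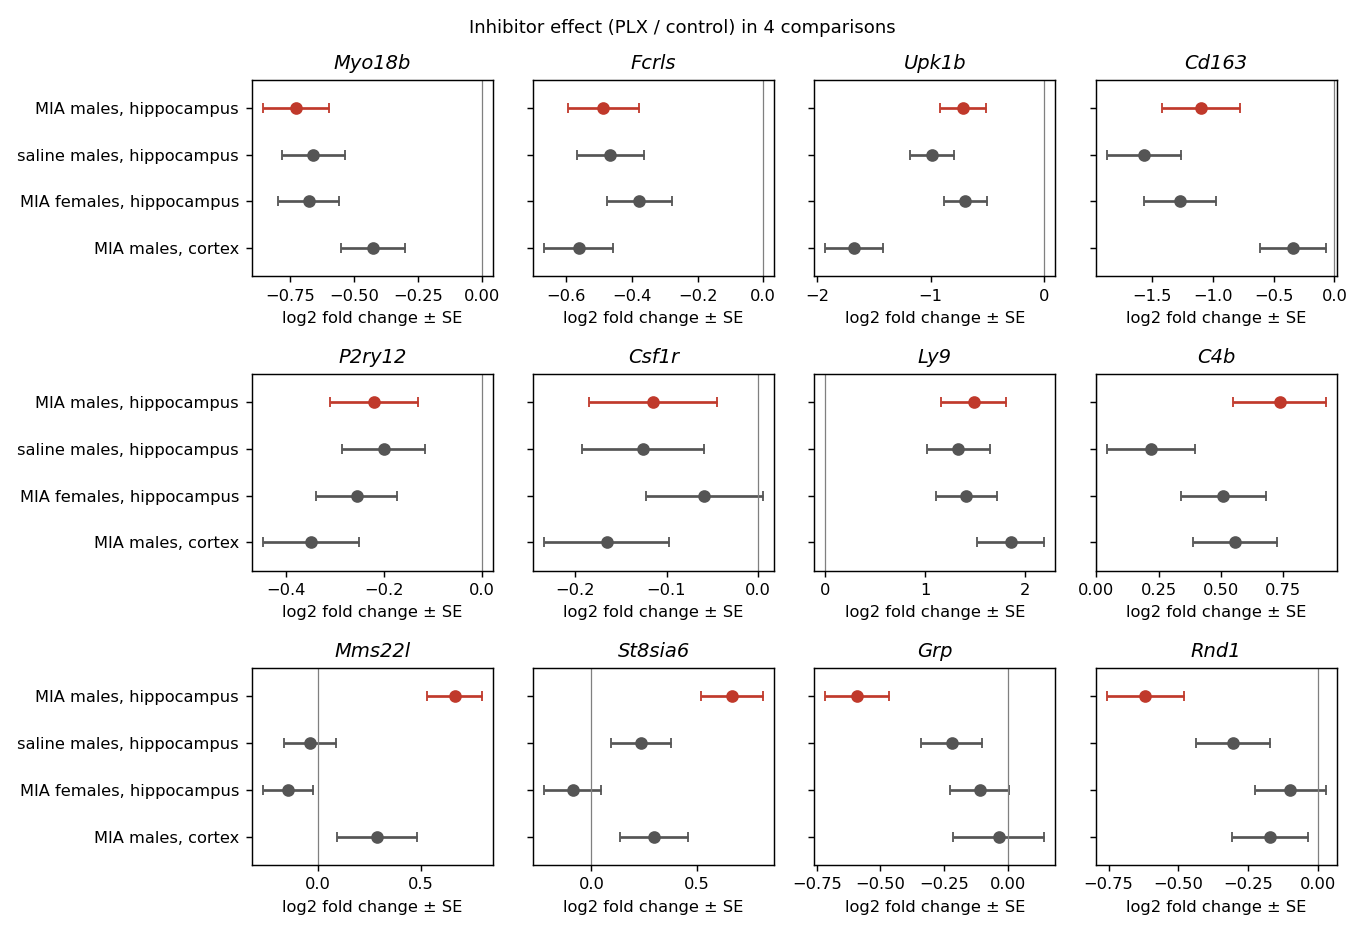
Log2 fold change (PLX over control, horizontal axis, each panel with its own scale) with its standard error for 12 genes in hippocampus of MIA males (red, top), saline males and MIA females and in cortex of MIA males. Myo18b, Fcrls and Ly9 have one sign in all 4, while Mms22l has 0.66 in MIA males and -0.04 and -0.15 in saline males and MIA females.

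Whether the effect in MIA males differed from the others was tested directly. No gene was called for the difference from saline males (364 genes, 1.96%, at an unadjusted p under 0.05), from MIA females (975 genes, 5.24%) or from cortex (267 genes, 1.44%) in limma, and edgeR and DESeq2 were not run on these differences. Hippocampal and cortical libraries of the same number deviated together in the controls (correlations of 0.308 to 0.623) and less so in PLX libraries (-0.112 to 0.300). With the shared number as a block (consensus correlation 0.405) the difference from cortex had 808 genes at an unadjusted p under 0.05 (4.34%), and again none called (smallest adjusted p = 0.221, limma). The smallest p-values against saline males belonged to Dmgdh, a mitochondrial enzyme of choline breakdown (-0.58 ± 0.27 in MIA males and 0.85 ± 0.25 in saline males, adjusted p of the difference = 1), to Mms22l (0.66 ± 0.13 and -0.04 ± 0.13) and to Trim15, a ubiquitin ligase (0.15 ± 0.27 and -1.21 ± 0.26). Against MIA females they belonged to Mms22l (difference 0.81 ± 0.18, adjusted p = 0.697), Ky (0.78 ± 0.20) and St8sia6 (0.76 ± 0.20). Against cortex they belonged to Henmt1, the methyltransferase of piRNAs (-0.78 ± 0.25 in hippocampus and 0.48 ± 0.24 in cortex), Ankrd34b (-0.23 ± 0.08 and 0.10 ± 0.07) and Ldb2, a cofactor of LIM homeodomain proteins (-0.39 ± 0.12 and 0.06 ± 0.10). For Henmt1 the 6 PLX libraries of hippocampus had 9.82 to 24.2 and the 5 controls 28.0 to 33.4, without overlap.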

How the data were processed

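Polyadenylated RNA of mouse hippocampus and prefrontal cortex was sequenced from stranded libraries, per the labels' protocols. The submitters' processing notes name Trimmomatic and STAR 2.6.1d with GRCm39 (mm39), and no source used here names the counting tool. The deposited signal table covers 22709 genes in 96 libraries, each holding counts over a factor of its own. Whole reads were recovered from these deposited values (100% whole within 0.01), a weak check where a factor is close to 1. Recovered reads numbered 22234569 to 26689351 per library.

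Genes reaching a signal of 10 in 5 or more of the 11 libraries were tested on log2(signal + 1) with limma 3.58.1 in R 4.3.3, with a variance trend, all 48 hippocampal libraries (8 groups) in 1 model, and all 96 for the difference from cortex. Fold changes are on that scale and understate those of low genes. All tests are two-sided, and calls use 0.05 after Benjamini-Hochberg adjustment. The difference from cortex took libraries of both tissues as independent. edgeR 4.0.16 and DESeq2 1.42.0 ran on the recovered reads. Libraries stand apart above the widest gap in the share of ribosomal protein and respiratory genes. Lengths came from GENCODE transcripts matched by symbol (99.0% of genes tested), and length, GC content and promoter motifs were added after seeing the data. Replicate numbers did not pair PLX with control libraries: deviations of same-numbered libraries correlated at -0.29 to 0.03.

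The libraries, the 41 gene lists (1059 symbols, 1002 in the table) and the tests were chosen with earlier results of these data known. Named genes are all called genes, in each direction 10 genes by p (5 with the term) without predicted genes, a fixed set of microglial and macrophage genes, up to 3 highest and 2 smallest-p members of a list, and the 3 smallest p-values of each difference. Adarb2, C4a, Cdh5, Flt1, Gad2, Nos1, Pdgfrb, Pvalb, Reln, Sst, Tek and Tnfsf8 were added after their values were seen. Bok, Ccr2, Cd79a, Chrnb4, Coch, Cux2, Drd1, Dsp, Fezf2, Fibcd1, Grik4, Lyve1, Mrc1, Pecam1, Pou3f1 and Wfs1 are cell type markers. A few genes are not reported here.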

Additional observations from a re-analysis of the deposited data

Results flagged for a closer look

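In 80 groups of libraries (40 named genes, PLX and control), 3 had 1 library far from the rest by Dixon's test, which chance does in about 1 of 20 groups. Traf3ip3 had 16.7 in control 02, against 24.7 to 28.0 in the other 4 controls. Tspan9 had 1053 in PLX 06, against 1164 to 1215 in the other 5 PLX libraries. Zhx3 had 2746 in PLX 06, against 3354 to 3607 in the other 5 PLX libraries.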

How the results depend on the processing

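The count of 1 called gene was the same with pseudocounts of 0.5 and 5, a stricter filter on the 11 libraries, a looser one over all 48, TMM scaling, edgeR, the term, and the 11 libraries alone, where the gene was C4b in place of Myo18b. It was 2 with no filter on low values, 0 with a replicate block and 0 once libraries that stand apart were left out. With DESeq2, which gave Myo18b no adjusted p, it was 3 (Fcrls, Grp and Rnd1). Leaving out 1 library at a time gave 0 to 3718: 3718 genes (2107 higher, 1611 lower) without control 02, 3040 (1679 higher, 1361 lower) without control 05, 2 without PLX 04, and 0 without control 03, PLX 01, PLX 03 or PLX 05. With library quality weights, which gave controls 02 and 05 weights of 0.326 and 0.3, 9064 genes were called (4700 higher, 4364 lower). Controls 02 and 05 are those that do not stand apart, so these counts compare PLX libraries mainly with controls that do; the cause was not tested. The weights also called 3198 genes for the difference from MIA females.

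The number of genes whose groups do not overlap, 440 as designed, was 1201 without the libraries that stand apart, where fewer controls make such genes commoner, and 470 to 2145 when 1 library was left out. The Csf1r difference ran from -0.147 to -0.084 over such omissions. Csf1 turned to -0.0038 with the term and -0.0061 with TMM scaling, and ran from -0.0278 to 0.0483 when 1 library was left out. Il34 turned to 0.0450 without the libraries that stand apart. Trim15 turned to -0.0697 with weights and ran from -0.0459 (without control 05) to 0.267 (without control 06). With the replicate block the log2 fold change of Myo18b was -0.71 (adjusted p = 0.170) and Csf1r -0.0982 (exact p = 0.188, smallest possible 0.0625); the numbers do not pair the samples. At signals near 10, counting error limits what could be called.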
